A study of Mus musculus with 12 samples.

Results

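The DEAD and DEAH box helicases encoded on the autosomes were described in RNA from mouse (Mus musculus) heart neutrophils with and without the Y chromosome. Members were the genes of the deposited table whose symbol starts with Ddx or Dhx and a digit, less the X-linked Ddx3x, the Y-linked Ddx3y and Ddx58. Ddx58 encodes the RNA sensor RIG-I, which belongs to another helicase family. The rule gave 44 of the 11911 genes of the table, 30 named Ddx and 14 named Dhx, on 14 autosomes. Chromosomes 8 and 11 carried 7 each. Symbols do not set family membership, so Dhx58, Ddx60, Ddx11 and Dhx32, which stand apart from the core families, were kept.

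The 12 libraries each came from 800 neutrophils (CD45.2+ Ly6G+ CD64- RFP+) sorted from digested left ventricles. They were 6 libraries with the genotype Control (2, 6, 7, 8, 11 and 12) and 6 with the genotype LOY (3, 4, 5, 10, 14 and 15), LOY standing for loss of the Y chromosome. All 12, LOY included, carry the treatment label Control and the title tag Control BMT. The labels give no strain, age or time point, do not say how the Y chromosome was removed, and do not tie a library to 1 mouse. The p-values therefore reflect how much these libraries vary, which may be technical. Each library held between 6767108 and 12561174 reads over the genes in the table. Ddx3y, the Y-linked helicase left out of the members, checked the genotype label: it had 399.7 to 1341 normalised reads in control and 0 to 51.6 in LOY, with 51.6 in LOY 10. The 9 neutrophil markers were all read in every library except Ly6g, which was at 0 in 1.

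DEAD and DEAH box proteins are ATPases that unwind RNA duplexes or strip proteins from RNA. Their helicase core is built from short conserved motifs, and motif II, which binds ATP through a magnesium ion, gives both families their names from its letters D-E-A-D or D-E-A-H. DEAD box proteins open short duplexes locally. DEAH box proteins move along a strand from its 3′ end and drive steps of pre-mRNA splicing. Neutrophils are short-lived cells that carry less RNA than most leukocytes.

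Motif II is shown because it is what the members share by name, and because its last codon separates the 2 families. It was looked for in the longest reading frame of each member's protein-coding transcripts (GENCODE M21, GRCm38), in a window from 60 to 340 codons after the ATP-binding motif I, set after the sequences were seen. Of the 44 members, 28 ended motif II with an aspartate codon (GAT or GAC) and 14 with a histidine codon (CAT or CAC). In 2, Ddx11 and Dhx32, no match was found with this search. The third codon was the canonical one for alanine in 22 of the 28 and in 6 of the 14. The lines below give 27 coding bases, 5′ to 3′, with the 12 bases of motif II in capitals.
Ddx5: cttgtccttGATGAAGCTGATaggatg
Ddx17: cttgtgttgGATGAGGCTGACcggatg
Ddx6: atagtgctaGATGAGGCAGATaaattg
Ddx54: gtggtgttcGATGAAGCAGACaggctc
Ddx39: tttgtgctaGATGAATGTGACaagatg
Ddx39b: tttattttgGACGAGTGTGACaagatg
Ddx52: ctggtagtaGATGAATCAGACaaactg
Ddx19a: tttgttctgGACGAGGCTGATgtgatg
Ddx19b: tttgttctgGACGAGGCTGATgtgatg
Dhx38: gtcatcatgGATGAGGCCCACgagcgc
Dhx40: attattttgGATGAAGCCCATgaaaga
Dhx15: ataattcttGATGAGGCCCATgaaaga
Dhx9: gttattgtgGATGAAATTCATgaaaga
Dhx58: attgtggtgGACGAGTGTCACcacacc
Ddx60: gttatatttGATGAGGTCCATtgcctt
The close relatives Ddx5 and Ddx17 encoded the same 4 amino acids in motif II, with different bases in 2 of the 4 codons, and Ddx19a and Ddx19b had identical bases over the stretch. Ddx39 and Ddx39b, both of the mRNA export machinery, had a cysteine codon (TGT) as the third, and Ddx52 a serine codon (TCA). Ddx60 carries a Ddx symbol, but its motif II ended in a histidine codon (CAT), as in the Dhx genes. Set beside the comparison of LOY with control, of the 15 tested members with an aspartate ending 8 had a positive and 7 a negative log2 fold change, and of the 10 with a histidine ending 5 had each sign.

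Levels were compared between genes as mean normalised reads per kilobase of exon over the 12 libraries, a normalised read being a read divided by the authors' factor for its library. Ddx5, a coactivator of transcription and a processing factor for mRNA and microRNA, stood far above the rest at 1339.8 per kilobase. The next were Ddx6 (223), which represses translation in P-bodies, and the DEAH members Dhx40 (209) and Dhx38 (195), the latter the splicing factor PRP16. Ddx39, Ddx41 and Ddx52 followed at 166, 158 and 130 per kilobase, and their coefficients of variation over libraries of 53.1%, 79.7% and 69.1% were wider than the gaps between them. Ddx5 alone made up 40.0% of the summed normalised reads of the 44 members, and Ddx5 with Ddx6 made up 49.2%. At the other end, Ddx23 had 1.86 and Ddx25 2.99 per kilobase.

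Most members were read unevenly. Only 11 of the 44 (25%) were above 0 in all 12 libraries, against 34.6% of the genes in the table, and 7 had at least 10 normalised reads in all 12: Ddx5, Ddx6, Dhx40, Dhx38, Ddx39, Ddx24 and Ddx17. Another 14 reached 10 normalised reads in only 1 to 3 libraries. In 15 members (34.1%) a single library held over 50% of the gene's normalised reads, as in 29.7% of the genes in the table. Libraries listed between 24 members (LOY 4) and 38 members (control 6) above 0. The library with the highest value of a member was most often LOY 10 (8 members), then LOY 3 (6) and LOY 5 (5). The same count was not made over all genes of the table. The median coefficient of variation of the 44 members was 139.9%.

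**Figure D1:**
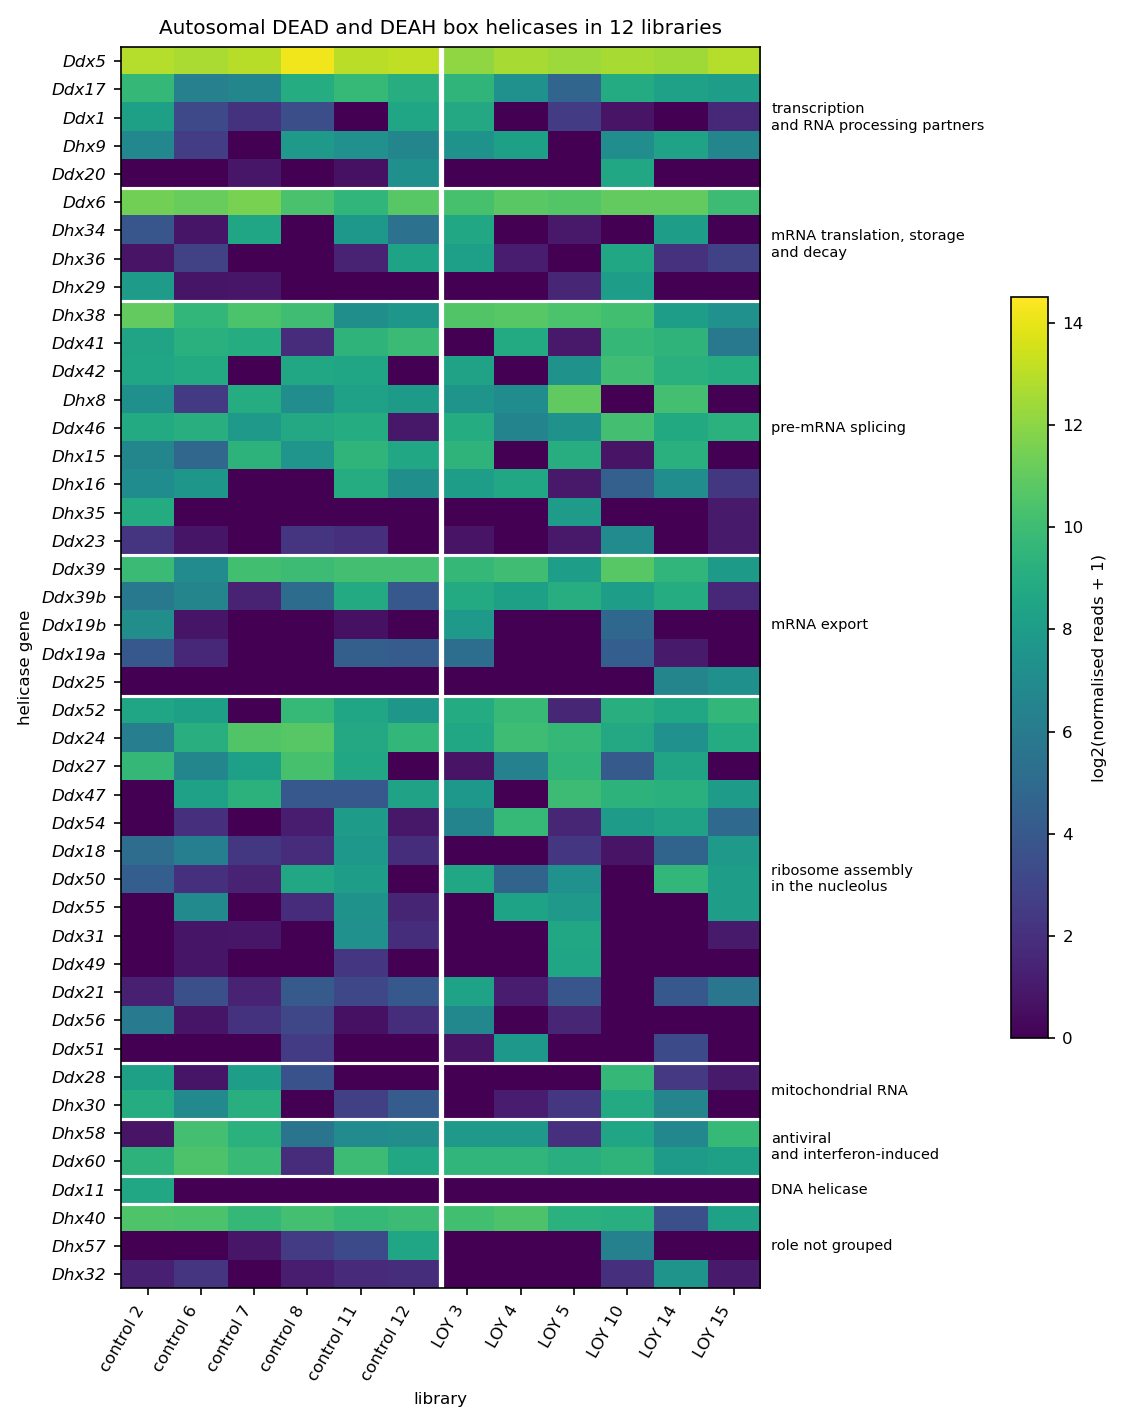
Heat map of all 44 helicases (rows, grouped by role and ordered by level) in 12 libraries (columns), coloured by log2(normalised reads + 1). Ddx5 is bright in every column and highest in control 8, while most rows below the first few alternate between high values and 0 within both genotypes.

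**Figure D2:**
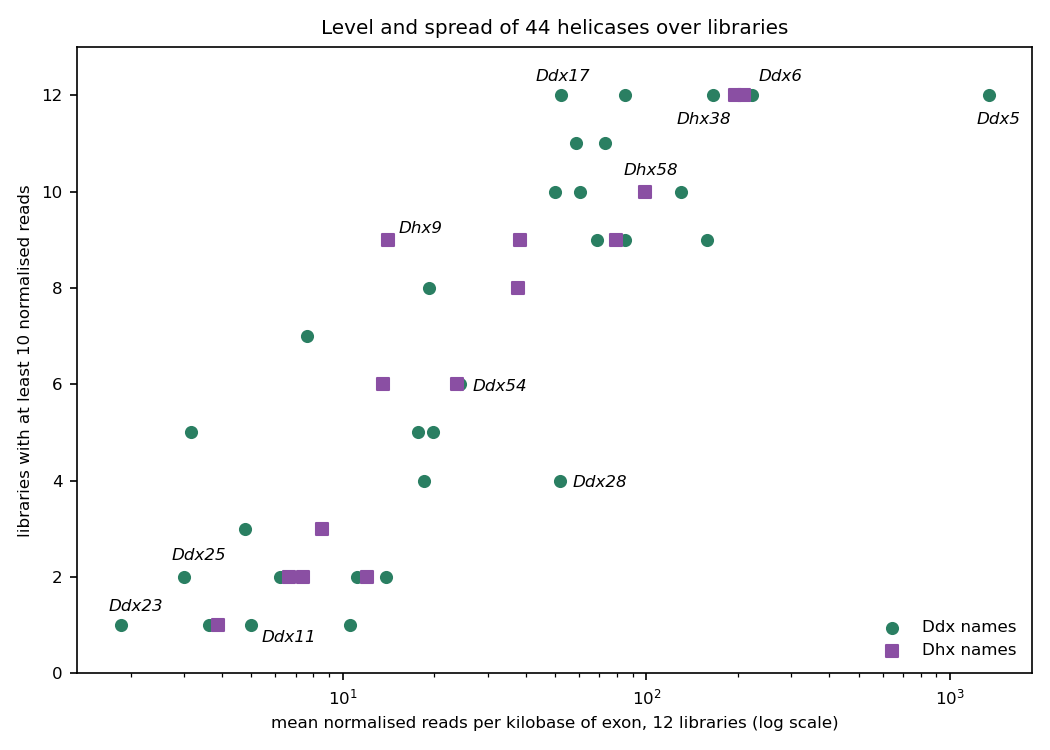
Mean normalised reads per kilobase of exon (log axis) against the number of libraries with at least 10 normalised reads, 1 point per helicase. The 7 members at 12 libraries lie at 52.2 per kilobase or above, and Ddx28 has a similar mean level to Ddx17 but reached 10 in only 4 libraries.

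The comparison of LOY with control asks whether the loss of the Y chromosome, and with it of the helicase gene Ddx3y, went with a change in the autosomal helicases. No member passed the test used. Of the 44, 25 reached 10 normalised reads in 6 or more libraries and were tested, and 19 were not. With limma on log2(normalised reads + 1), 0 of the 25 passed a Benjamini-Hochberg adjusted p of 0.05 over the 6951 genes tested, where 0.0288% of all genes passed. At an unadjusted p under 0.05 there were 2 members, Ddx54 and Ddx5, where 4.37% of all genes were under it. Of these, Ddx54 passed the value filter through the group where it was high, with 5 LOY libraries and 1 control library at 10 or more. With edgeR on the recovered reads 0 of 25 passed the adjusted threshold, as for all genes (0%), and 2 members, Ddx5 and Ddx21, were under an unadjusted p of 0.05, beside 1.83% of all genes.

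Fold changes lay on both sides of 0. Of the 25 tested members 13 had a positive and 12 a negative log2 fold change (LOY over control), from -3.004 to 4.52. Their median was 0.12, beside 0.0081 for all genes tested, and it ran from -0.29 to 0.50 over the alternatives. The median standard error of the members was 1.69, beside 1.35 for all genes tested. A missed threshold therefore leaves wide intervals: only Ddx6 had a 95% interval inside a log2 change of 1 in either direction, as did 5.68% of the genes tested. None of the 44 members had groups that did not overlap, a pattern shown by 0.201% of the genes tested. The summed normalised reads of the 44 members were 21220 ± 4331 in control and 17491 ± 2138 in LOY (SD, n = 6 each), and control 8, the highest, had 29317. Nearly all of the gap between these sums was that of Ddx5 alone, with means of 9594 in control and 5881 in LOY. In bulk RNA, fewer cells expressing a gene and less RNA per cell cannot be told apart.

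**Figure D3:**
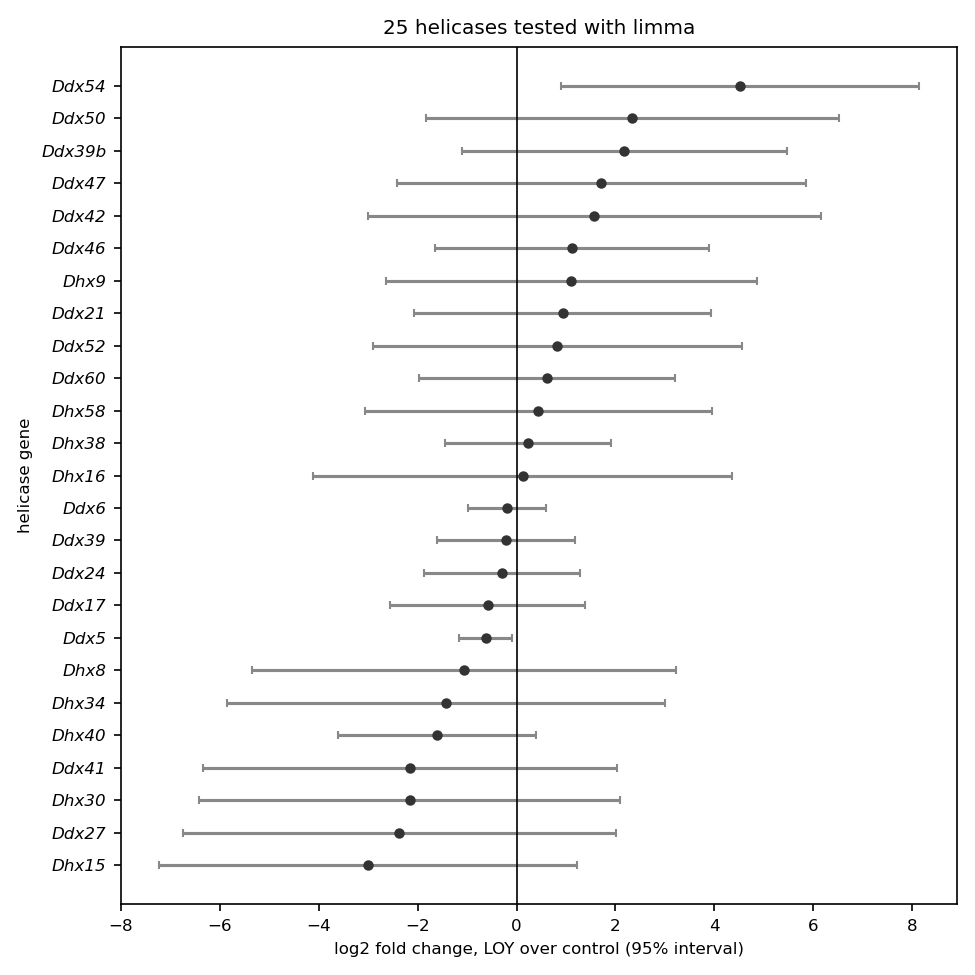
Log2 fold change of LOY over control with its 95% interval for the 25 helicases tested with limma, ordered by size. Only the intervals of Ddx54 and Ddx5 leave out 0, before adjustment over all genes, and that of Ddx6 is the only one that stays within 1 of 0.

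Among the partners of transcription and RNA processing, Ddx5 (ENSMUSG00000020719, chromosome 11, 106780355 to 106789185, minus strand) had the smallest standard error of the tested members. In library order it had 7546, 6434, 7899.7, 18666, 8084 and 8933 normalised reads in control and 4381, 6232, 5353, 6118, 5605 and 7597 in LOY. Control 8 stood above every other library. In LOY, 5 of the 6 values were below the lowest control value, and LOY 15 lay among the controls, so the groups overlapped. The log2 fold change of Ddx5 was -0.63 (SE 0.25), with a 95% interval of -1.17 to -0.088, a limma p of 0.0257 and an adjusted p of 0.997. Without control 8 it was -0.42 (limma p 0.046), and without control 8 and LOY 5, the libraries of lowest array weight, it was -0.39 (limma p 0.0756). Over all the alternatives run its log2 fold change stayed negative. Of the 50-base words of Ddx5 transcripts 14.6% also occur in other genes, mostly the pseudogene Gm12183, so part of its reads could have been assigned elsewhere.

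Ddx17, the paralogue of Ddx5, was 25.7 times lower per kilobase and lower than Ddx5 in all 12 libraries. It had 800.5, 78.6, 98.6, 497, 836 and 524 normalised reads in control and 719, 158, 25.7, 477, 312 and 264 in LOY, so the groups overlapped over most of their range. Its log2 fold change of -0.59 (SE 0.92) turned positive without LOY 5. Dhx9, which resolves RNA and RNA:DNA structures in the nucleus, ran from 0 to 217 with a median of 103 in control and from 0 to 323 with a median of 156 in LOY, with a log2 fold change of 1.11 (SE 1.75) that ran from 0.072 (without control 7) to 2.37 (without LOY 5). Ddx1, part of the tRNA ligase complex, was at 10 or more in 3 control libraries and in LOY 3 only, and Ddx20, the gemin of the SMN complex, in control 12 (154) and LOY 10 (397) only. Neither was tested.

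Ddx6 (chromosome 9, 44604892 to 44640731, plus strand) leads the members of mRNA translation, storage and decay. It had 2734, 2266, 3058, 1292, 741 and 1694 normalised reads in control and 1233, 1787, 1551, 2096, 2066 and 964 in LOY, and the groups overlapped throughout. Its log2 fold change of -0.18 (SE 0.37) had a 95% interval of -0.97 to 0.61, the only one among the members within 1 of 0. Dhx34, of nonsense-mediated decay, was at 10 or more in 4 control and 2 LOY libraries and had a log2 fold change of -1.42 (SE 2.07), which was 0.12 with DESeq2. Dhx36 and Dhx29 were not tested. Dhx36, which unfolds G-quadruplexes, reached 10 in control 12 (342), LOY 3 (289) and LOY 10 (400.4), and Dhx29, a scanning factor of translation initiation, in control 2 (260.3) and LOY 10 (269.8).

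The splicing helicases numbered 9, of which 7 were tested, 4 with a positive and 3 with a negative fold change. Dhx38, PRP16 of the second splicing step, had 2059, 765, 1339.5, 1052, 147 and 199.9 normalised reads in control and 1518, 1682, 1359.8, 1102, 265 and 163 in LOY. In both groups 4 libraries were above 700 and 2 were at or below 265, and the log2 fold change was 0.22 (SE 0.78). Dhx15 (chromosome 5, 52150203 to 52190514, minus strand), which takes the spliceosome apart, had 98.6, 26.2, 665, 189, 718 and 401 in control and 684, 0, 528, 0.706, 599 and 0 in LOY. It was read at 10 or more in all 6 control libraries, while LOY split into 3 libraries above 500 and 3 below 1. Its log2 fold change of -3.004 (SE 1.97) was the lowest of the tested members, with a limma p of 0.15, whereas edgeR gave -0.22, the mean levels being 349.5 ± 294 in control and 302 ± 334 in LOY (SD, n = 6 each).

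Dhx8, PRP22, which releases spliced mRNA, changed sign between fits. It had 152, 4.49, 511, 136, 314 and 239.7 normalised reads in control and 179, 130.3, 1970, 0, 1154 and 0 in LOY, so LOY held both the 2 highest values and 2 values of 0. Its log2 fold change was -1.06 (SE 2.00) with limma, 1.33 with edgeR, and 0.13 with limma without LOY 10. Ddx41, a helicase of the late spliceosome also known as a sensor of DNA, had 349, 600.2, 505, 2.53, 682 and 928 in control and 0, 468, 0.989, 811, 698 and 56.6 in LOY, with 1 control and 2 LOY libraries below 3. For Ddx41 the log2 fold change was -2.16 (SE 1.96), and with each library left out in turn it ran from -3.38 (without control 8) to -0.99 (without LOY 3). Ddx42 and Ddx46, both linked to the U2 snRNP, showed a log2 fold change of 1.58 (SE 2.14) for Ddx42 and of 1.12 (SE 1.30) for Ddx46. Both were highest in LOY 10 (1076 and 1134). With 1 library left out at a time Ddx42 ran from 0.42 (without control 7) to 3.05 (without LOY 4), and Ddx46 ran from -0.17 (without control 12) to 1.52 (without LOY 4). Dhx16 ran from 0 to 505 with a median of 142 in control and from 0.989 to 409 with a median of 78.6 in LOY. Dhx35 was above 0 in 3 libraries and Ddx23, of the U5 snRNP, in 8, but above 10 only in LOY 10 (125).

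The mRNA export helicases included a close pair. Ddx39 was higher per kilobase than Ddx39b, UAP56 of the TREX export complex, in 5 of 6 control and 5 of 6 LOY libraries. Ddx39 ran from 124 to 1159.6 with a median of 1051 normalised reads in control and from 237 to 1686 with a median of 782 in LOY, with a log2 fold change of -0.21 (SE 0.65). Ddx39b (chromosome 17, 35241746 to 35253707, plus strand) had 56.6, 97.3, 1.66, 34.2, 459 and 14.8 in control and 457, 307, 525, 279.7, 511 and 2.06 in LOY. It was above 250 in 5 of 6 LOY libraries and in 1 of 6 control libraries, control 11, and LOY 15 was near the lowest control. The log2 fold change of Ddx39b was 2.18 (SE 1.53) with a limma p of 0.178. With 1 library left out at a time it ran from 1.40 (without control 7) to 3.35 (without LOY 15), with limma p-values of 0.362 and 0.018 at these ends. The exons of Ddx39 overlap those of Adgre5 over 17.4% of their length, and the chemistry keeps no strand, so reads there could belong to either. Ddx19a and Ddx19b, neighbours on chromosome 8 that dock at the nuclear pore, share 28.1% of the 50-base words of Ddx19a. They were above 0 in 7 and 5 libraries and were not tested.

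Ddx25, a helicase known from germ cells (chromosome 9, 35536647 to 35558528, minus strand), was the 1 member called in the authors' deposited table, with a log2 fold change of 22.27 and an adjusted p of 1.22e-11. That table called 3.12% of its genes with a p-value in either direction and 1.91% as higher in LOY. It lists a p-value for 32 of the 44 members. Ddx25 had 0 reads in all 6 control libraries and in 4 LOY libraries, and 94.6 and 154 normalised reads in LOY 14 and LOY 15. Against a floor of 3 reads over the control group it was at least 95.1-fold higher in LOY, a bound that covers counting error only and rests on those 2 libraries. It was below the value filter and was not tested with limma. DESeq2 on the recovered reads gave the same log2 fold change as the authors' table, so its call repeats theirs and is no separate support. Ddx11, a DNA helicase of sister chromatid cohesion, was the mirror case, with 396 normalised reads in control 2 and 0 in the other 11 libraries. It was at least 153-fold lower in LOY against the same kind of floor, a bound that rests on control 2 alone. The median of Ddx11 was 0 in both groups, and the authors' deposited table gives it no p-value.

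Ribosome assembly in the nucleolus was the largest group with 13 members, of which 7 were tested, 5 with a positive and 2 with a negative fold change. Their summed normalised reads were 2191 ± 1096 in control and 2683 ± 737 in LOY (SD, n = 6 each). Ddx54 (chromosome 5, 120612739 to 120628592, plus strand), of large subunit maturation, had 0, 2.99, 0, 1.27, 244 and 0.925 normalised reads in control and 93.5, 826, 1.98, 262, 329 and 29.9 in LOY. Control 11 lay among the LOY values and LOY 5 among the controls, while the other control libraries lay between 0 and 3. The log2 fold change of Ddx54 was 4.52 (SE 1.69), the highest of the tested members, with a limma p of 0.018 and an adjusted p of 0.997. EdgeR gave 2.58 with an unadjusted p of 0.194. Ddx54 reached 10 normalised reads in 5 LOY libraries and 1 control library, so it passed the value filter through the group where it was high, and leaving out any one of those 6 libraries took it out of the test. Exons of Gm43579 and Cfap73 overlap 15.5% of its exon length.

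The other tested nucleolar members spread as widely. Ddx24 was at 10 or more in all 12 libraries and ran from 71.8 to 1694 with a median of 673 in control and from 159.8 to 1034 with a median of 456 in LOY, with a log2 fold change of -0.29 (SE 0.74). Ddx52 had a log2 fold change of 0.82 (SE 1.74) that was -0.60 without control 7, the 1 library where it was at 0. The log2 fold change was 1.72 (SE 1.94) for Ddx47 and -2.37 (SE 2.04) for Ddx27, and each was above 0 in 10 libraries. Left-out libraries moved Ddx47 from 0.59 (without control 2) to 3.19 (without LOY 4) and Ddx27 from -3.82 (without control 12) to -1.40 (without LOY 15), the lower end of Ddx27 with a limma p of 0.0481 and an adjusted p of 0.997. Ddx50 and Ddx21, paralogues that lie side by side on chromosome 10, had mean levels of 19.3 and 7.60 per kilobase. Ddx50 was the higher in 7 of 12 libraries, and the coefficients of variation of 125% and 242% leave the order of the pair unsettled. The log2 fold change of Ddx50 was 2.34 (SE 1.95) and ran from 1.52 (without control 12) to 3.62 (without LOY 10). Ddx21 was at or below 16.5 normalised reads in every control library and had 338, 1.16, 13.8, 0, 14.7 and 51.5 in LOY, where LOY 3 held 71.6% of its total over the 12 libraries. Its log2 fold change was 0.93 (SE 1.40) with limma, running from 0.023 (without LOY 3) to 1.70 (without LOY 10), and the authors' deposited table lists 2.99 with a p of 0.0486 and an adjusted p of 0.492. Ddx18, Ddx31, Ddx49, Ddx51, Ddx55 and Ddx56 were above 0 in 10, 6, 3, 4, 7 and 8 libraries and were not tested. Nearly all reads of Ddx49 came from LOY 5 (367 normalised reads), and nearly all of Ddx51 from LOY 4 (214). Ddx18 shares 55.9% of its 50-base words with other genes, mainly Gm16433, and Ddx49 25.1%, all with Homer3, so the assignment of their reads is uncertain. Over all 44 members, 17 shared no such word and 8 shared over 10%.

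Both members known from the antiviral response were tested. Ddx60 (chromosome 8, 61928087 to 62038244, plus strand), an interferon-induced gene, had 655, 1379, 920.4, 2.53, 979 and 401 normalised reads in control and 758, 732, 545, 677, 244 and 306 in LOY. All LOY libraries lay inside the control range, and control 8 alone was near 0. Its log2 fold change of 0.62 (SE 1.21) was -0.68 without control 8, and -0.44 with edgeR. Dhx58, which encodes the regulator LGP2 of RNA sensing, ran from 0.725 to 1168 with a median of 135 in control and from 2.97 to 854 with a median of 223 in LOY, with a log2 fold change of 0.44 (SE 1.64) that turned negative with edgeR (-0.26). The mitochondrial helicases Ddx28 and Dhx30 were uneven. Ddx28 had 804 normalised reads in LOY 10, 305 and 279 in control 2 and 7, and under 12 elsewhere. Dhx30 ran from 0 to 536 in control and from 0 to 458 in LOY. It passed the value filter mostly through control, where it was higher, with 4 control and 2 LOY libraries at 10 or more. Its log2 fold change was -2.17 (SE 1.99).

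Dhx40 (chromosome 11, 86768846 to 86807746, minus strand), a DEAH protein of less settled function, was the third member by level. It had 1471, 1335, 811, 1154, 852 and 973 normalised reads in control and 1119.6, 1402, 620.1, 545, 10.5 and 317 in LOY. The control libraries kept within 811 to 1471, while LOY reached from 10.5 in LOY 14 to 1402 in LOY 4. The log2 fold change of -1.60 (SE 0.93) had a limma p of 0.108, and without LOY 14 it was -0.61 (limma p 0.178). Dhx57 was above 0 in 5 libraries and Dhx32 in 8, and Dhx32 reached 10 only in LOY 14 (179.7). Neither was tested.

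**Figure D4:**
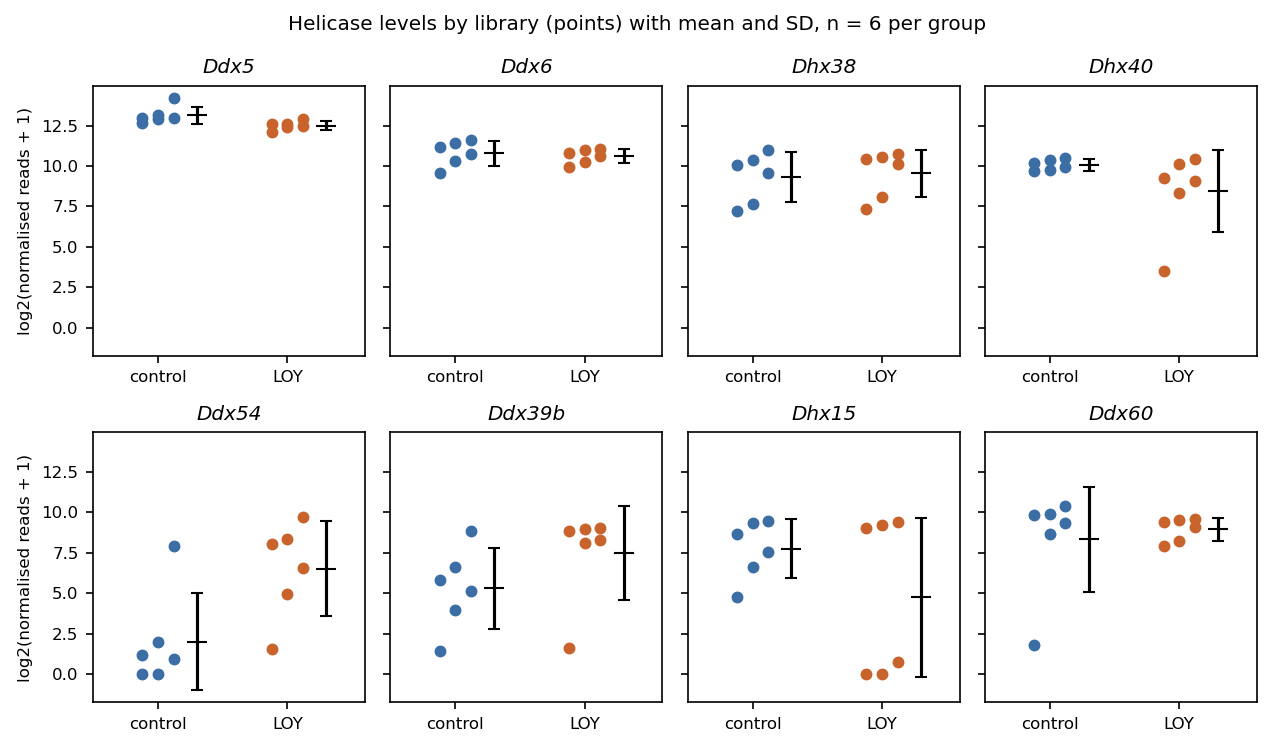
Level of 8 helicases as log2(normalised reads + 1) in 6 control and 6 LOY libraries (points), with the group mean and SD beside them. All points of Ddx5 and Ddx6 lie far above 0, Dhx15 splits into high and near-0 libraries in LOY, and control 11 of Ddx54 and LOY 15 of Ddx39b lie with the other group.

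Other RNA helicases from a chosen list were read alongside. Of 23 listed, 20 were in the table and 15 were tested, 9 with a positive and 6 with a negative fold change. With limma 0 passed the adjusted threshold and 1 was at an unadjusted p under 0.05, beside 4.37% of all genes tested. That 1 was Ddx58 (RIG-I), with 602 ± 382 in control and 1350.1 ± 659.6 in LOY (SD, n = 6 each), with a log2 fold change of 1.42 (SE 0.66) and a limma p of 0.0495. Ifih1, which encodes the sister sensor MDA5, had 335 ± 361 in control and 551 ± 303 in LOY (SD, n = 6 each), with a log2 fold change of 1.01 (SE 0.71). Of 38 listed partner proteins, such as activators and cofactors of these helicases, 22 were tested, 10 with a positive and 12 with a negative fold change, 0 past the adjusted threshold and 4 at an unadjusted p under 0.05, beside the 4.37% of all genes tested. Dcp2, the decapping enzyme that works with Ddx6, had 232 ± 161 in control and 38.3 ± 42.7 in LOY (SD, n = 6 each), with a log2 fold change of -3.50 (SE 1.36) and a limma p of 0.0223. Rbm5, a splicing regulator with the G-patch that activates Dhx15, had 1882 ± 697 in control and 934 ± 524 in LOY (SD, n = 6 each), with a log2 fold change of -1.08 (SE 0.45) and a limma p of 0.0301. Rtcb, the tRNA ligase that Ddx1 assists, had 154 ± 158 in control and 484 ± 204 in LOY (SD, n = 6 each), with a log2 fold change of 3.14 (SE 1.31) and a limma p of 0.0305. The fourth, Thoc7 of the export complex THO, had 109 ± 64.5 in control and 33.8 ± 60.7 in LOY (SD, n = 6 each), with a log2 fold change of -3.57 (SE 1.63) and a limma p of 0.0455. These 4 were named for their p and do not stand for their complexes. Thoc2, also of THO, had a log2 fold change of 0.80 (SE 0.89), and Edc3, also of decapping, 1.51 (SE 1.64).

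Markers of other heart cells were read too. All 14 tested cardiomyocyte markers had a positive log2 fold change, and 0 passed the adjusted threshold with limma. At an unadjusted limma p under 0.05 were 4 of the 14, beside 4.37% of all genes tested. The 15 genes of that list summed to between 4937 and 8324 normalised reads in control and between 4500 and 68648 in LOY. The highest sum was in LOY 10. Of the 15 genes Actn2, Myl3, Nppa, Pln, Ryr2 and Tnnc1 were at 0 in some library. Among tested endothelial markers 7 of 9 had a positive fold change, and among fibroblast markers 6 of 6. For B cell, macrophage and red cell and platelet markers fewer were positive, 1 of 7, 2 of 8 and 1 of 5. Their median log2 fold changes were -1.15, -0.087 and -2.48, that of the macrophage markers being near 0. With limma 0 markers of these 5 lists passed the adjusted threshold. At an unadjusted limma p under 0.05 were 3 of 9 endothelial and 1 of 6 fibroblast markers, beside the same 4.37% of all genes. The neutrophil markers summed to 201264 to 588375 in control and to 181682 to 367398 in LOY. The highest sum, in control 8, came mostly from S100a8 (251270) and S100a9 (259274). Mmp9 went the other way, with its lowest value of the 12 libraries in control 8 (8346). Of the 9 neutrophil markers 3 had a positive fold change, and their median log2 fold change was -0.090. The part of the other heart cells in the helicase values was not tested.

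The promoters of the members were compared for short motifs of common transcription factors. RefSeq promoter sequences (GRCm38.p6, 250 bases before to 50 after the start) were matched by symbol for 38 of the 44 members, and 7 motifs were searched on both strands, chosen after results of these data were known. None of the 7 contains another. A gene counts when any of its listed promoters holds the motif, and shares are given for the 38 members, for the genes of the table with a promoter, and for all genes of the RefSeq promoter set. The ETS motif CCGGAAG lay in 17 of the 38 members (44.7%), against 20.9% of the table and 9.93% of all genes. Of the 11 members above 0 in all 12 libraries 7 had a matched promoter, and the motif lay in 3 of these 7. It lay in 14 of the other 31 members with a promoter. The GC box GGGCGG lay in 65.8% of the members, against 67.3% and 38.2%. The CCAAT box CCAAT lay in 52.6%, against 42.5% and 41.1%. The TATA box TATAAA lay in 13.2%, against 9.07% and 15.7%, and the E-box CACGTG in 13.2%, against 11.8% and 8.09%. The palindromic NRF1 motif lay in 2.63%, against 2.35% and 1.07%. The core of the interferon-stimulated response element (GAAA, any 2 bases, GAAA) lay in 2 members, Ddx60 and Ddx49 (5.26%), against 4.23% and 3.99%. Dhx58, the other antiviral member, had no matched promoter and was not searched. The promoters of Ddx60 and of Ddx54, the member with the smallest limma p, are given with the matches in capitals (the response element core in Ddx60, the ETS motif on the opposite strand in Ddx54).
Ddx60, chr8:61927837-61928136, plus strand: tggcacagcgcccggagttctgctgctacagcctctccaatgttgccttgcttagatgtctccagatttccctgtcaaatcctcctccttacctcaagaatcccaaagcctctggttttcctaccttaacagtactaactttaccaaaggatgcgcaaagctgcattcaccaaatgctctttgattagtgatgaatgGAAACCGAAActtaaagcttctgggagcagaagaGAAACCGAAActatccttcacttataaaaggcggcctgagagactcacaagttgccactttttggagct
Ddx54, chr5:120612880-120613179, plus strand: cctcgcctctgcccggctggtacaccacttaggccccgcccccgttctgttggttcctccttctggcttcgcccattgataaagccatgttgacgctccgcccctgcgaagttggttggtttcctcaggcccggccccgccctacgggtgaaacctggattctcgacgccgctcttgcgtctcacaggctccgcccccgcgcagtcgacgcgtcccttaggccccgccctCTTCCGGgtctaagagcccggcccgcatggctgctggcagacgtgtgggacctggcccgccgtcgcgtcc
Ddx60 held 2 copies of the same 10 letters, GAAACCGAAA, upstream of its start. A match of letters is a description and shows no binding.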

How the data were processed

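RNA was measured in 12 libraries of 800 heart neutrophils each, made per the labels' protocols with SMART-Seq v4 and Nextera XT, which keep neither strand nor molecular identifiers. The submitters' processing notes name Trimmomatic 0.36, STAR 2.5.2b, featureCounts (Subread 1.5.2), GRCm38 and mm10. The signal columns of the deposited table hold read counts scaled by the authors, with a single factor for each library. All nonzero values are whole multiples of the library's own step (100% to within 0.01 read), and dividing by the step recovered the reads. In LOY 5 the step is close to 1, so the multiples alone tell less there; its reads were recovered like the rest for the count alternatives. The deposited log2 fold changes, p-values and adjusted p-values are the authors' own, and the sources used here do not name their tool. DESeq2 on the recovered reads gave the same log2 fold changes for the members, so it is not independent of the deposited values.

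The main test was limma 3.58.1 (trend, robust) on log2(normalised reads + 1) for genes of at least 10 in at least 6 libraries, with Benjamini-Hochberg adjustment and a threshold of 0.05. Its code was checked on simulated counts whose spread was capped. That check does not show how the test behaves on members as uneven as these. Alternatives were pseudocounts of 0.5 and 5, no filter, a mean of at least 50, quantile normalization, array weights, DESeq2 1.42.0 and edgeR 4.0.16 on recovered reads, each library left out, and control 8 and LOY 5 left out together. Gene coordinates and exon lengths are from GENCODE M21. The rule for named genes gave every member its level, and fold changes to up to 10 tested members per direction by p, the 10 of highest level per kilobase, and members the authors called. The members, lists and alternatives were chosen with earlier results of these data known. Floors cover counting error only, and PCR copies count as reads. The intervals of the log2 fold changes come from the limma fit and reflect how much the libraries vary.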

Additional observations from a re-analysis of the deposited data

Results flagged for a closer look

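The check covered 48 groups (24 helicases with a limma fold change given, 2 genotypes, 6 libraries each). In 15 of them 1 library lay farther from the rest than Dixon's 95% critical value allows on the log2(normalised reads + 1) scale. Chance flags about 1 group in 20. In 13 of the 15 that library was the lowest. The 2 high ones were Ddx5 in control 8, at 18666 normalised reads against 6434 to 8933 in the other libraries of its group and Ddx54 in control 11, at 244 normalised reads against 0 to 2.99 in the other libraries of its group. Listed at 0 were Ddx52 in control 7 (others 203 to 835), Ddx42 in LOY 4 (others 177 to 1076), Ddx27 in control 12 (others 100.3 to 1223), Ddx47 in LOY 4 (others 214 to 992) and Dhx9 in LOY 5 (others 99.9 to 323). Above 0 but low were Dhx40 in LOY 14 at 10.5 (others 317 to 1402), Ddx39 in control 6 at 124 (others 932 to 1159.6), Ddx41 in control 8 at 2.53 (others 349 to 928) and Ddx52 in LOY 5 at 1.98 (others 392 to 917). The same held for Dhx8 in control 6 at 4.49 (others 136 to 511), Ddx60 in control 8 at 2.53 (others 401 to 1379), Ddx39b in LOY 15 at 2.06 (others 279.7 to 525) and Ddx46 in control 12 at 0.925 (others 220.4 to 558). The low libraries were spread over both genotypes: control 6, 7, 8 and 12 and LOY 4, 5, 14 and 15 each appear. The cause was not tested.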

How the results depend on the processing

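The count of helicases past the adjusted threshold was 0 under every alternative run except DESeq2 on the recovered reads, where it was 1 (Ddx25, which the value filter leaves out of the main test). The median log2 fold change of the tested helicases was 0.12 and ran from -0.29 to 0.50 over the alternatives, changing sign. Each alternative lay within 0.54 of 0.12. That 0.54 is the SD within groups, pooled, of each library's median log2 level of the tested helicases. It is a spread of levels, not of fold changes, and does not show that the median is stable. For the 24 helicases given a limma fold change, which leaves out Ddx25, 484 alternative values were computed over 21 settings. None of these 24 passed an adjusted p of 0.05 in any, 14 kept their sign throughout, and 27 values in the other 10 turned sign. Without control 8 and LOY 5 the sign turned for Ddx17 (0.14), Ddx39 (0.12) and Ddx60 (-0.71). With array weights the sign turned for Ddx60 (-0.038). With DESeq2 the sign turned for Ddx60 (-0.41), Dhx34 (0.12), Dhx58 (-0.24) and Dhx8 (1.34). With edgeR the sign turned for Ddx60 (-0.44), Dhx34 (0.088), Dhx58 (-0.26) and Dhx8 (1.33). With each library left out in turn, the ranges that crossed 0 were those of Ddx17 (-1.0002 to 0.025), Ddx24 (-0.89 to 0.016), Ddx39 (-0.73 to 0.074), Ddx46 (-0.17 to 1.52), Ddx52 (-0.60 to 2.10), Ddx60 (-0.68 to 1.04), Dhx38 (-0.20 to 0.66), Dhx58 (-0.73 to 1.47) and Dhx8 (-2.06 to 0.13). The cause was not tested. Ddx54, Dhx30 and Dhx34 each reached 10 in exactly 6 libraries and could not be fitted without any one of those. No paired analysis was possible because the groups share no replicate number. The value filter left 19 helicases untested, and 14 of them, Ddx49 and Ddx51 among them, drew over 50% of their normalised reads from 1 library. Whether depth bears on this was not tested.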
